A study of Mus musculus with 24 samples.

Results

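The genes described here are 7 interferon-inducible p200 genes of the mouse, Aim2, Ifi202b, Ifi203, Ifi204, Ifi205, Ifi207 and Mndal, out of 52636 genes listed for the series. They were chosen by family name, and the family was selected on the fall of Ifi205 in MC38-COSMC KO cells against MC38-MOCK#1 cells. Values from that contrast, and from any comparison that uses samples of either line, are therefore given as a description with no test. RNA sequencing was done on 24 samples of 8 lines of MC38, a colon carcinoma cell line from a C57BL/6 mouse, with 3 samples a line.

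MC38-WT was unmodified. MC38-MOCK#1 received an empty CRISPR-Cas9 construct and is the control of 3 knockout lines, MC38-CMAS KO, MC38-COSMC KO and MC38-DKO, in which the target genes were CMAS, COSMC and both. Cmas makes the activated form of sialic acid, and C1galt1c1, the gene of COSMC, encodes the chaperone of the enzyme that elongates O-glycans beyond the Tn antigen. MC38-MOCK#2 is the control of 2 lines labelled as overexpressing FUT4 or FUT9, fucosyltransferases, through CRISPR-dCas-VPR, a Cas9 that does not cut but carries a transcriptional activator. All lines but MC38-WT were grown with puromycin, and MC38-COSMC KO cells were sorted in bulk rather than as a single clone. The 3 samples of a line are different passages of it, except in the line labelled MC38-FUT4. MC38-MOCK#1 and the knockout lines were taken at passages 4, 5 and 6, MC38-MOCK#2 and MC38-FUT9 at 6, 7 and 8, the line labelled MC38-FUT4 at 7, 8 and 7, and MC38-WT at 7, 8 and 9. Passage and line cannot be told apart between MC38-WT and the knockout lines, and p-values measure only the spread between samples of 1 line. In the line labelled MC38-FUT4, samples 1 and 3 are both at passage 7. Whether they were separate cultures is not stated, so the spread of that line may be understated.

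Values are normalized counts, that is reads per gene scaled between libraries by the authors and rounded to whole numbers. An estimate from the whole numbers that this scaling skips or doubles put the libraries at 6759308 to 16230967 reads in genes, with 1 read worth between 0.756 and 1.67 normalized counts. Cmas averaged 112 ± 17.1 (SD, n = 3) in MC38-CMAS KO and 133 ± 10.1 in MC38-DKO, and lay at 272 or above in every sample of the other lines. C1galt1c1 averaged 144 ± 19.5 in MC38-COSMC KO, 182 ± 21.0 in MC38-DKO and 238 ± 15.9 in MC38-MOCK#1. It also averaged 183 ± 31.5 in MC38-CMAS KO and 181 ± 32.3 in MC38-MOCK#2, where COSMC was not targeted. The MC38-DKO transcript level was therefore not below that of all lines with COSMC untargeted. Transcript levels do not measure whether a knockout worked. For the COSMC knockout the authors report mutations of C1galt1c1 and lost activity of the enzyme that COSMC serves. Fut9 averaged 757 ± 172 in MC38-FUT9, but also 189 ± 19.1 in the line labelled MC38-FUT4, where Fut4 itself reached at most 1, so that line is named by its label throughout. Of 7 markers of colon epithelium, Epcam, Cdh1 and the others but Krt20 reached at most 8 in any sample. Krt20, a keratin, reached 468 in the line labelled MC38-FUT4, where the 7 markers summed to between 266 and 476, against at most 49 in every other sample. The mesenchymal list, led by Vim, summed to between 32659 and 50879 in each sample. Nearly all of that sum was Vim and Fn1, so it does not show how the lower members differed. Over the 24 samples Col1a1 ranged from 19 to 255 and Col1a2 from 4 to 131.

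The p200 proteins, also called PYHIN proteins, join a pyrin domain, through which inflammasome proteins assemble, to 1 or more HIN domains that bind DNA. Aim2 is the best known: on binding DNA in the cytosol it recruits the adaptor Pycard and, through it, caspase 1. Ifi204 is a mouse relative of human IFI16 and acts both in DNA sensing and in the nucleus. Ifi202b lacks the pyrin domain and inhibits Aim2. Ifi203, Ifi205, Ifi207 and Mndal are nuclear family members with less settled roles. As the name says, most of these genes are induced by type I interferon, which acts through transcription factors on a response element in the promoters of its targets.

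The 7 genes lie in 1 cluster on chromosome 1 (GRCm38), from base 173350879, the first base of Aim2, to base 174031810, the last base of Ifi205, a stretch of 680.9 kb that holds 14 other listed genes, p200 relatives and pseudogenes among them. Aim2 is on the plus strand and the other 6 are on the minus strand. The family is made of near copies, which bears on how well reads can be assigned. Of all distinct 50-base stretches of its annotated transcripts, the length of the sequencing reads, Ifi204 shared 20.02% with transcripts of other genes, Mndal 19.6%, Ifi205 18.6%, Ifi203 12.2%, Ifi207 7.29%, Aim2 0.628% and Ifi202b 0%. Ifi211, a p200 gene of the cluster outside the list, shared 72.8%, most of it with Ifi205 and Ifi204, so its values are uncertain, and so are reads where exons overlap, over 155 bases of Mndal, shared with Gm38050 or Ifi203, and over 37 bases of Ifi203, shared with Mndal.

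The promoter windows show what the genes of the cluster share apart from their coding parts. RefSeq (GRCm38.p6) gave windows from 250 bases before to 50 bases after the start site for 6 of the 7 genes. They were searched on both strands for the core of an interferon-stimulated response element, GAAA, 2 bases of any kind and GAAA, and for TTCNNNGAA, the letters of a gamma-activated site. No match of the one overlapped a match of the other. The first motif was held by 3.44% and the second by 8.30% of all 32851 windows. Windows of Ifi203, Ifi205, Ifi207 and Mndal held the first, as did the window of Ifi211. The windows of Aim2 and Ifi202b did not, and Ifi202b alone among these genes held the second. Aim2 had 1 window, which lies inside the gene as counted, from base 173350879 to base 173466040. Any start site of Aim2 further upstream was not searched. The matched stretches on the strand of the gene are shown because they align across the cluster, with the motif in capitals and 20 bases on each side, followed by the bases of Aim2 from 60 to 11 before its start site:
Ifi205: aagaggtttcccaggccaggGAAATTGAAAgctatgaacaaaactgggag
Ifi207: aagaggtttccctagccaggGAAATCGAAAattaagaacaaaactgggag
Ifi211: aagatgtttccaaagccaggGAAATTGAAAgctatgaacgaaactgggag
Mndal: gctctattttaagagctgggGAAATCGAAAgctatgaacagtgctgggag
Ifi203: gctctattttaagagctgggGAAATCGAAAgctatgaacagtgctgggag
Aim2: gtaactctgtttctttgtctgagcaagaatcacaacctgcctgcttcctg
They lie at chr1:174031860-174031909 for Ifi205, chr1:173741821-173741870 for Ifi207, chr1:173913054-173913103 for Ifi211, chr1:173880194-173880243 for Mndal and chr1:173942498-173942547 for Ifi203, all minus strand, and at chr1:173420544-173420593, plus strand, for Aim2. The stretches of Mndal and Ifi203 were identical over all 50 bases, and those of Ifi205 and Ifi211 over 46. The match began 35 to 41 bases before the start site in Ifi203, Mndal, Ifi211 and Ifi207, and 134 bases before it in Ifi205, whose window held another match on the reverse strand 23 bases after the start. One of the 2 windows of Mndal also held a reverse match. No window was given for Ifi204.

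Transcripts of 6 of the 7 genes were detected, and these 6 passed the filter on low values in every comparison, while Ifi202b was at 0 in all 24 samples. Per kilobase of exon, the mean level over the 24 samples was highest for Aim2, at 92.1 normalized counts per kb, followed by Ifi204 at 49.1, Ifi205 at 11.9, Mndal at 5.87, Ifi207 at 4.47 and Ifi203 at 2.55. The first pair changed places in MC38-MOCK#1, where Ifi204 averaged 93.9 and Aim2 73.3 normalized counts per kb, and in MC38-MOCK#2, at 86.8 and 50.5. Aim2 stood apart in its spread too. It ranged from 147 to 501 normalized counts over all samples, whereas Ifi204 ranged from 0 to 582 and Ifi205 from 0 to 174.

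**Figure D1:**
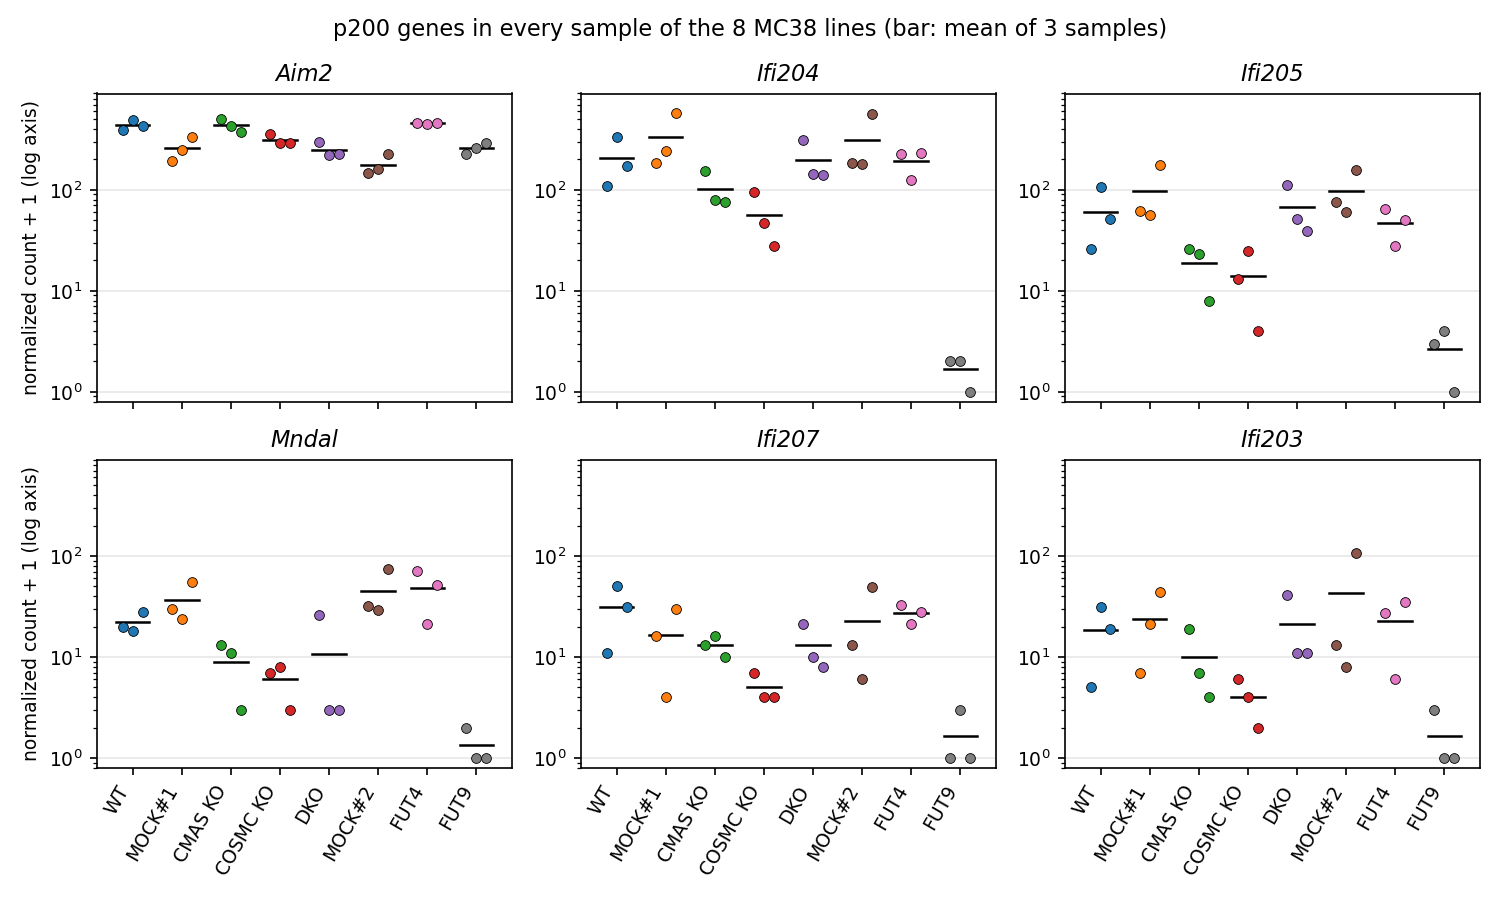
Normalized count plus 1 (log axis) of the 6 detected p200 genes in each of the 3 samples of the 8 MC38 lines (points, samples 1 to 3 from left to right), with the mean of the line as a bar. The MC38-FUT9 samples sit at 0 to 3 for every gene but Aim2, which stays between 147 and 501 in all lines.

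The largest differences of the p200 genes were in MC38-FUT9, where 5 of the 6 detected genes were near 0 and Aim2 was not. Ifi204 read 1, 1 and 0 normalized counts in the 3 MC38-FUT9 samples, against 185, 178 and 564 in MC38-MOCK#2 and 227, 125 and 230 in the line labelled MC38-FUT4. Ifi205 read 2, 3 and 0 in MC38-FUT9, against 74, 60 and 157 in MC38-MOCK#2 and 63, 27 and 49 in the line labelled MC38-FUT4. Mndal read 1, 0 and 0 in MC38-FUT9, against 31, 28 and 73 in MC38-MOCK#2 and 70, 20 and 51 in the line labelled MC38-FUT4. For each of these genes no MC38-FUT9 sample reached the lowest sample of either other line.

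Ifi207 read 0, 2 and 0 in MC38-FUT9, against 12, 5 and 48 in MC38-MOCK#2 and 32, 20 and 27 in the line labelled MC38-FUT4. Ifi203 read 2, 0 and 0 in MC38-FUT9, against 12, 7 and 107 in MC38-MOCK#2 and 26, 5 and 34 in the line labelled MC38-FUT4. These groups did not overlap either, but sample 3 of MC38-MOCK#2 lay far above the other two for Ifi203. Aim2, in contrast, read 228, 258 and 290 in MC38-FUT9, above all 3 samples of MC38-MOCK#2 (147, 159 and 224) and below all 3 of the line labelled MC38-FUT4 (454, 450 and 456).

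In MC38-FUT9 against MC38-MOCK#2, 5 of the 6 p200 genes tested were called lower, where 12.0% of all 21480 genes tested were called lower. After rescaling to the same total per sample 3237 genes were called lower and 1979 higher, against 2570 and 2596, and the same 5 p200 genes were called. A call here means an adjusted p below 0.05 in limma on log2(value + 1), corrected by the Benjamini-Hochberg method over all genes tested. Ifi204 fell by 7.39 on the log2 scale (SE 0.529, limma adjusted p = 0.000358), Ifi205 fell by 5.29 (SE 0.611, limma adjusted p = 0.00164) and Mndal fell by 5.02 (SE 0.505, limma adjusted p = 0.000992). Ifi203 fell by 3.96 (SE 1.01, limma adjusted p = 0.0310) and Ifi207 fell by 3.44 (SE 0.840, limma adjusted p = 0.0267), and these calls were lost under several settings, for instance when 1 was replaced by 5 as the added constant (adjusted p = 0.0713 for Ifi203 and 0.0511 for Ifi207 in limma). For Aim2 the log2 fold change was 0.57 (SE 0.177) and missed the threshold, with a limma adjusted p of 0.0599 that ranged from 0.0183 to 0.208 over the alternatives.

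With so few reads in MC38-FUT9, the log2 values depend on the added constant, and the ratio of reads shows the size of the gap. Ifi204 had about 791 reads in the 3 MC38-MOCK#2 samples and about 2 in the 3 MC38-FUT9 samples, a 529-fold ratio on the authors' scaling with an exact 95% interval of 146 to 4379. Ifi205 had about 253 and 6 reads, a 56.4-fold ratio (25.6 to 155). The ratio was 154-fold for Mndal (27.1 to 6132, on 1 read in MC38-FUT9), 66.3-fold for Ifi203 (17.9 to 555, on 2 reads) and 23.6-fold for Ifi207 (7.66 to 118, on 3 reads). These intervals cover counting error only, not the spread between samples. The MC38-FUT9 libraries were the deeper ones, at an estimated 13530984 to 16230967 reads against 8183171 to 12071758 in MC38-MOCK#2.

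Against the line labelled MC38-FUT4, all 6 genes tested were called lower in MC38-FUT9, where 15.8% of all genes tested were called lower. On the log2 scale Ifi204 fell by 6.89 (SE 0.397, limma adjusted p = 7.73e-05), and the difference was fitted at -5.08 for Mndal, -4.29 for Ifi205, -4.22 for Ifi207 and -3.63 for Ifi203. Aim2 fell by 0.81 (SE 0.0953, limma adjusted p = 0.000987). Both lines carry more Fut9 transcript than MC38-MOCK#2, so the comparison sets a line at 757 normalized counts of Fut9 against a line at 189.

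Aim2 was the only p200 gene called in the line labelled MC38-FUT4 against MC38-MOCK#2. It rose by 1.38 on the log2 scale (SE 0.158, limma adjusted p = 0.00223), and 8.10% of all genes tested were called higher. The 7 epithelial markers summed to 266 to 476 in that line and 6 to 19 in MC38-MOCK#2, and their part in the rise of Aim2 was not tested. Nearly all of the sum in that line was Krt20, at a mean of 393 against 0.333. Vil1, another of the 7, was called lower, at 0.333 against 4.67 (limma adjusted p = 0.0349), and the other 3 tested were not called. The other 5 genes were not called, with log2 fold changes from -1.004 for Ifi205 (SE 0.436, limma adjusted p = 0.182) to 0.78 for Ifi207 (SE 0.723, limma adjusted p = 0.538). MC38-FUT9 and the line labelled MC38-FUT4 share the MC38-MOCK#2 samples as their control.

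**Figure D2:**
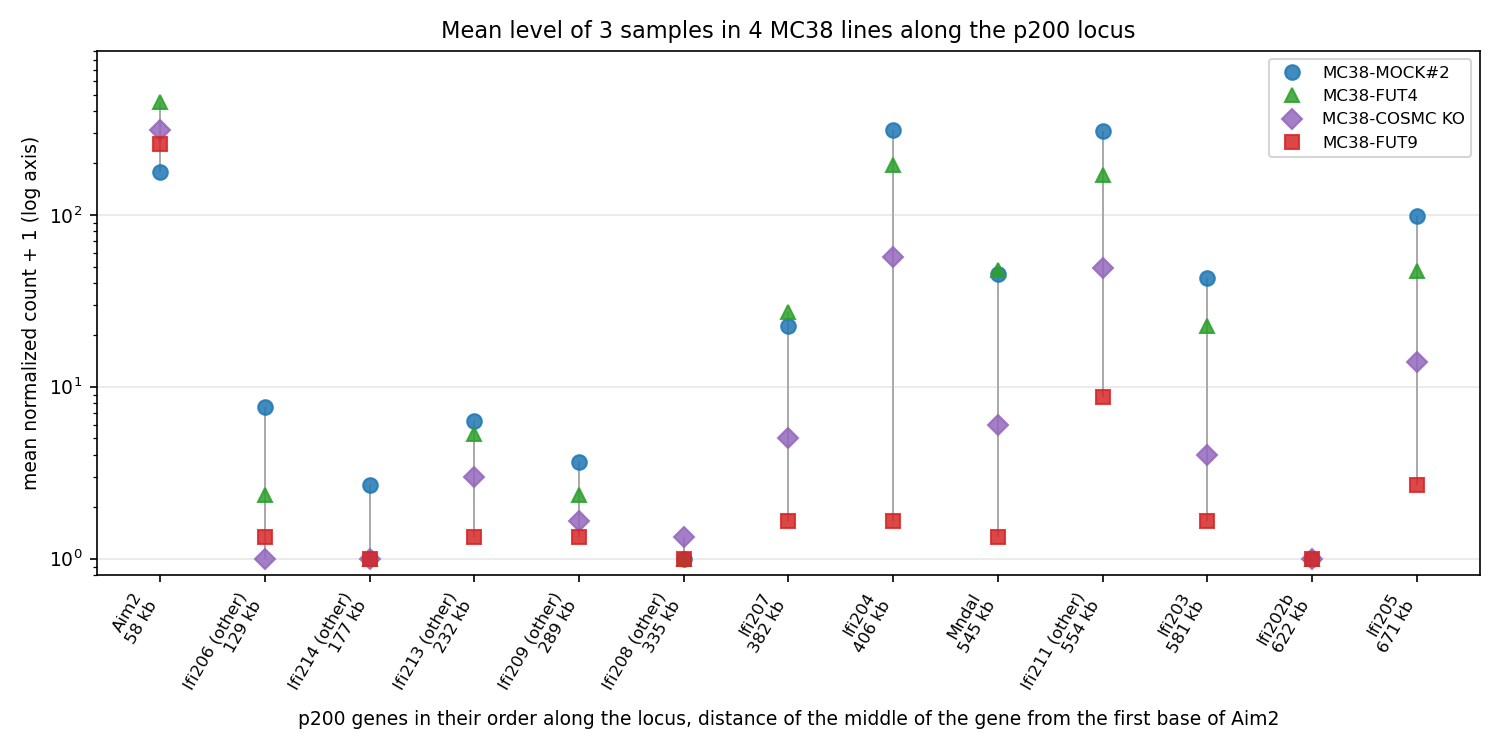
Mean normalized count plus 1 of 3 samples (log axis) in MC38-MOCK#2, the line labelled MC38-FUT4, MC38-COSMC KO and MC38-FUT9 for 13 p200 genes in their order along the cluster, 6 of them outside the list and marked as other. From Ifi207 onward the detected genes are lowest in MC38-FUT9 (square), while Aim2, at the other end, is lowest in MC38-MOCK#2 (circle), and the genes between them average at most 6.67 in all 4 lines.

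The neighbours in the cluster can be read beside these genes. Ifi211 averaged 7.67 in MC38-FUT9 and 305 in MC38-MOCK#2, a log2 fold change of -4.97 (SE 0.420, limma adjusted p = 0.000602). Of the 14 other genes of the cluster only 6 could be tested in that comparison, and 2 were called lower, Ifi211 and Ifi214, the latter at an average of 1.67 even in MC38-MOCK#2. Ifi206, Ifi208, Ifi209 and Ifi213, which lie between Aim2 and Ifi207, averaged at most 6.67 in any line. None of them was called against MC38-MOCK#2, where Ifi208 could not be tested, and against the line labelled MC38-FUT4 only Ifi213 was called lower among them, at 0.333 against 4.33 (log2 fold change -2.08, SE 0.390, limma adjusted p = 0.00716).

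Among the lines without a modified fucosyltransferase, the tests without MC38-COSMC KO and MC38-MOCK#1 called only Aim2. MC38-WT had 394, 488 and 431 normalized counts of Aim2, MC38-CMAS KO had 501, 432 and 371, and MC38-DKO had 299, 222 and 226. Aim2 was lower in MC38-DKO than in MC38-WT, at a log2 fold change of -0.82 (SE 0.148, limma adjusted p = 0.0123), where 4.03% of all genes tested were called lower. It was also lower in MC38-DKO than in MC38-CMAS KO, at -0.80 (SE 0.154, limma adjusted p = 0.0216), where 3.78% were called lower. In MC38-MOCK#2 it was lower than in MC38-WT, at -1.32 (SE 0.174, limma adjusted p = 0.00750), where 1.77% were called lower. The direction held in every alternative, but the call was lost in 7 of 16 alternatives in each of these comparisons, mostly where 1 sample was left out.

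By limma, 0 of the 6 genes tested were called in MC38-CMAS KO against MC38-WT, and 0.236% of all genes tested, 51 genes, were called in either direction. Ifi205 read 25, 22 and 7 in MC38-CMAS KO and 25, 105 and 50 in MC38-WT, a log2 fold change of -1.63 (SE 0.603, limma adjusted p = 0.383). Mndal read 12, 10 and 2 in MC38-CMAS KO and 19, 17 and 27 in MC38-WT, a log2 fold change of -1.52 (SE 0.585, limma adjusted p = 0.403). At an unadjusted p below 0.05 these were the 2 genes of the 6 that passed, as did 10.7% of all genes tested. All 6 fold changes were below 0, from -1.63 to -0.02 for Aim2.

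The samples of MC38-DKO overlapped those of MC38-WT for Ifi204 (310, 144 and 139), Ifi203 (40, 10 and 10) and Ifi205 (110, 51 and 38), with sample 1, at passage 4, the highest for each. Ifi205 was higher in each MC38-DKO sample than in any MC38-CMAS KO sample, as were 12.3% of all genes tested. Its log2 fold change was 1.85 (SE 0.538), but the limma adjusted p of 0.0833 missed the threshold. Mndal read 25, 2 and 2 in MC38-DKO, with sample 1 far above the other two.

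**Figure D3:**
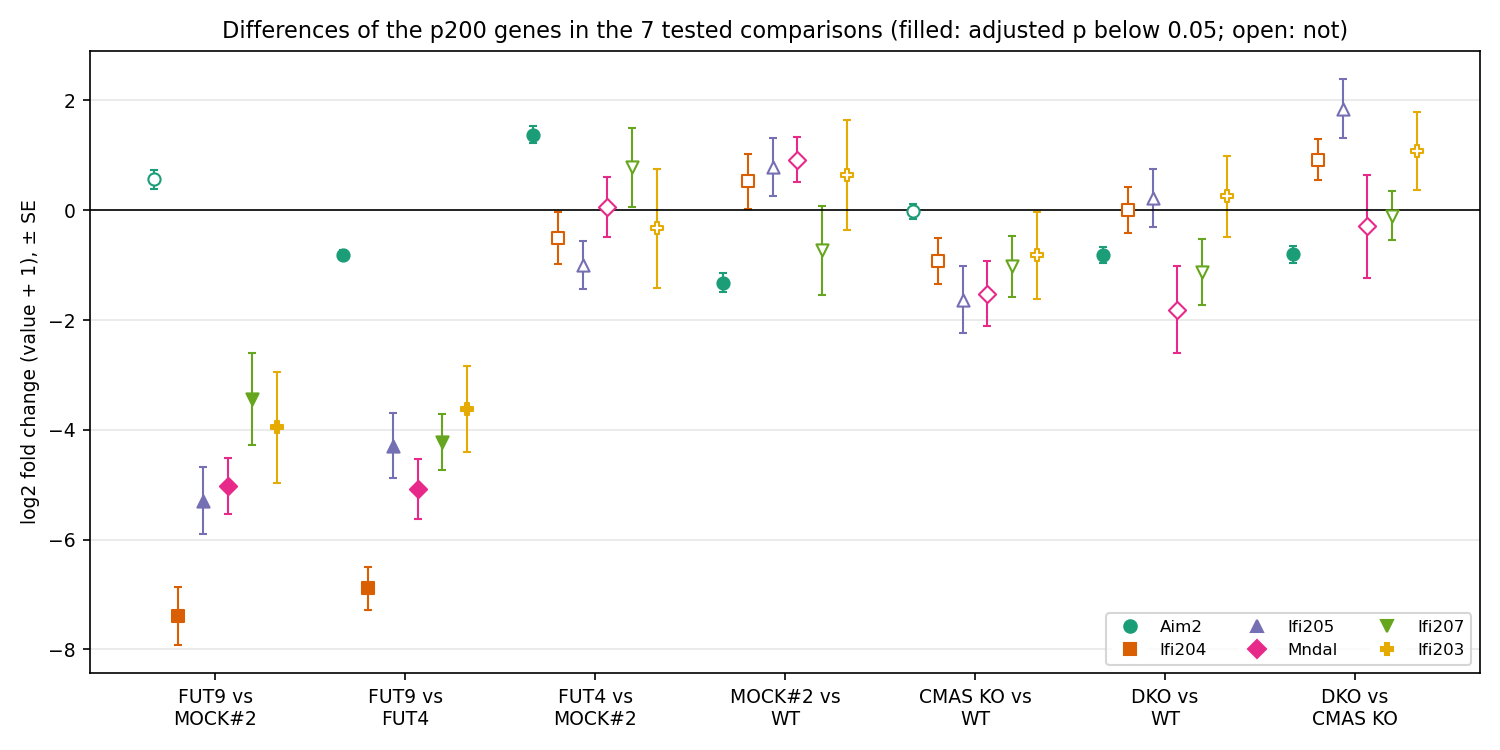
Log2 fold change of value + 1 (vertical axis, with its SE) of the 6 detected p200 genes in the 7 comparisons that were tested, first line minus second. Filled symbols passed an adjusted p below 0.05 in limma and open symbols did not: 5 genes are filled in MC38-FUT9 against MC38-MOCK#2, 6 against the line labelled MC38-FUT4, Aim2 alone in 4 comparisons and none in MC38-CMAS KO against MC38-WT.

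The contrast that led to the choice of the family is described without a test. Ifi205 read 12, 24 and 3 in MC38-COSMC KO and 61, 55 and 174 in MC38-MOCK#1, a log2 fold change of -2.96 (SE 0.717). Ifi204 read 94, 46 and 27 against 182, 239 and 582 (-2.56, SE 0.540), Mndal 6, 7 and 2 against 29, 23 and 54 (-2.63, SE 0.494), and Ifi203 5, 3 and 1 against 6, 20 and 43 (-2.36, SE 0.729). Ifi207 overlapped between the lines, at 6, 3 and 3 against 15, 3 and 29, and Aim2 went the other way, at 358, 290 and 287 against 191, 248 and 331 (0.31, SE 0.198). Ifi203, Ifi204, Ifi205 and Mndal, 4 of the 6, were lower with no overlap between the lines, as were 14.1% of all genes tested there.

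The same samples of MC38-MOCK#1 also stood above MC38-CMAS KO with no overlap for Ifi204, Ifi205 and Mndal (12.5% of all genes tested were lower with no overlap), at log2 fold changes of -1.60 (SE 0.467), -2.33 (SE 0.596) and -2.18 (SE 0.623). Against MC38-WT, MC38-COSMC KO was lower with no overlap in Aim2, Ifi204, Ifi205, Ifi207 and Mndal (7.87% of all genes tested), and for Ifi205 the log2 fold change was -2.25 (SE 0.725). The MC38-COSMC KO samples are those of the contrast that chose the family, so this is not independent of the choice. MC38-MOCK#1 and MC38-WT overlapped in Ifi205 (61, 55 and 174 against 25, 105 and 50) and in every other detected p200 gene but Aim2. Sample 3 of MC38-MOCK#1 was the highest of its line for all 6 genes.

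In the order of the lines by mean level, neighbours mostly overlapped. For Ifi204 the means ran from 334 ± 216 in MC38-MOCK#1 through 309 ± 221 in MC38-MOCK#2, 205 ± 117 in MC38-WT, 198 ± 97.3 in MC38-DKO, 194 ± 59.8 in the line labelled MC38-FUT4, 102 ± 44.2 in MC38-CMAS KO and 55.7 ± 34.5 in MC38-COSMC KO to 0.667 ± 0.577 in MC38-FUT9 (SD, n = 3 each). The only neighbours in this order whose samples did not overlap were MC38-COSMC KO and MC38-FUT9. For Ifi205 the order was alike, from 97.0 ± 52.4 in MC38-MOCK#2 and 96.7 ± 67.0 in MC38-MOCK#1 down to 18.0 ± 9.64 in MC38-CMAS KO, 13.0 ± 10.5 in MC38-COSMC KO and 1.67 ± 1.53 in MC38-FUT9. For Aim2 it was another order, from 453 ± 3.06 in the line labelled MC38-FUT4, 438 ± 47.4 in MC38-WT and 435 ± 65.0 in MC38-CMAS KO to 177 ± 41.4 in MC38-MOCK#2, and its only neighbours without overlap were MC38-CMAS KO and MC38-COSMC KO (312 ± 40.2).

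The other genes that interferon induces fell with the 5 p200 genes in MC38-FUT9. Of 36 such genes on a list that holds none of the 7, 28 were called lower and 0 higher in MC38-FUT9 against MC38-MOCK#2, beside 12.0% and 12.1% of all genes tested. The median log2 fold change was -3.49 against 0.01 over all genes tested. Lgals3bp, a secreted glycoprotein, fell by 6.45 (SE 0.506, limma adjusted p = 0.000495), Ifi44 fell by 5.42 (SE 0.866, limma adjusted p = 0.00554) and Oas1a, which senses double-stranded RNA, fell by 5.16 (SE 0.626, limma adjusted p = 0.00193). Against the line labelled MC38-FUT4, 28 were called lower, with Rsad2 at -6.25 and Oasl1 at -5.25, beside 15.8% of all genes tested. Ifit2 alone was called higher there, at 1.15 (SE 0.0946, limma adjusted p = 0.000255). Windows of 18 of the 30 genes of this list that had one held the core of the response element. In the other tested comparisons at most 2 of the 36 were called lower and at most 1 higher. Called or not, all 36 had fold changes below 0 in MC38-CMAS KO against MC38-WT (median -0.88). In MC38-DKO against MC38-WT 31 were below 0 and 5 above (median -0.63). In MC38-DKO against MC38-CMAS KO 9 were below 0 and 27 above (median 0.30). In MC38-COSMC KO against MC38-MOCK#1, described without a test, 33 were below 0 and 2 above (median -1.38).

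Of the receptors and signalling genes of the interferon pathway, 7 of 17 tested were called lower in MC38-FUT9 against MC38-MOCK#2 and 0 higher, beside 12.0% and 12.1% of all genes tested. They were led by Usp18, a negative regulator of the receptor, at 1.67 against 135 normalized counts, and Irf7, a transcription factor, at 4.33 against 141. Irf9, at 141 against 380, was not called (limma adjusted p = 0.0935). Against the line labelled MC38-FUT4, 7 of 17 tested were called lower and 4 higher, where 15.8% of all genes tested were called lower. Irf9 was among the lower ones there, at 141 against 438 (limma adjusted p = 0.00853), and Ifngr2, Ifnar1 and Jak2 among the higher ones. Of the interferons themselves, Ifnb1 was at 0 or 1 in all 24 samples and Ifng at 0.

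Of the genes of cytosolic DNA sensing and the inflammasome, 6 of 16 tested were called lower in MC38-FUT9 against MC38-MOCK#2 and 2 higher, beside 12.0% and 12.1% of all genes tested. Zbp1, a sensor of nucleic acids, averaged 0 against 33.7, Tmem173, the gene of STING, 12.3 against 114, and Ripk3, a kinase of necroptosis, 31.3 against 222. Gsdmd, which forms the pores of pyroptosis, rose by 3.60 (SE 0.380, limma adjusted p = 0.00117), from 3.67 to 55.0. Casp1, the caspase that Aim2 acts through, averaged 33.3 against 145. Cgas, another DNA sensor, was at 585 against 521 and was not called. Pycard, the adaptor that links Aim2 to caspase 1, was at 0 in all 24 samples, Il1b reached at most 1 and Il18 at most 2.

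**Figure D4:**
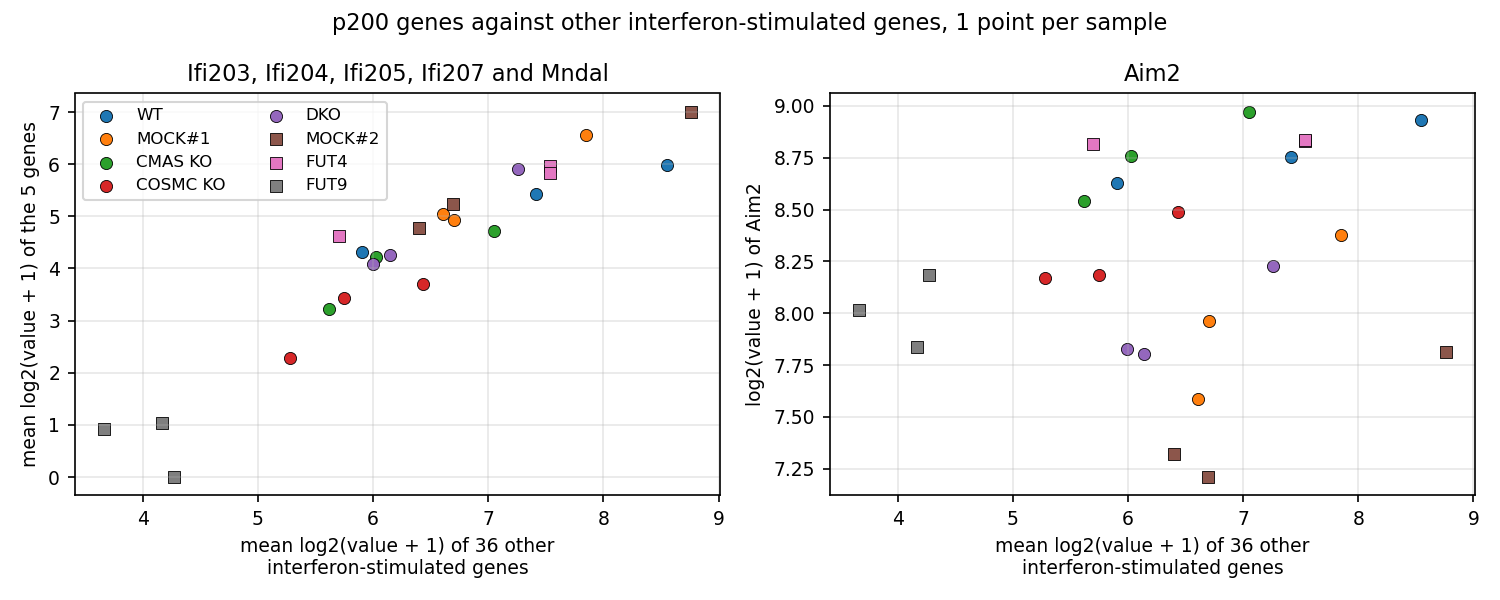
Mean log2(value + 1) of Ifi203, Ifi204, Ifi205, Ifi207 and Mndal (left) and log2(value + 1) of Aim2 (right) against the mean log2(value + 1) of 36 other interferon-stimulated genes, 1 point per sample, coloured by line. The 5 genes rise along the horizontal axis (Pearson r = 0.94 over 24 samples) and the MC38-FUT9 samples lie lowest on it, between 3.66 and 4.27. Aim2 shows little relation when all lines are pooled (r = 0.23), but in every line its highest sample is also the highest on that axis.

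Levels of the interferon-stimulated list differed widely between samples of 1 line, and the 5 p200 genes differed with it. The mean log2 level of the 36 genes ran from 5.90 to 8.55 in MC38-WT, from 6.40 to 8.76 in MC38-MOCK#2 and from 5.28 to 6.43 in MC38-COSMC KO, and from 3.66 to 4.27 in MC38-FUT9. Over the 24 samples, the mean log2 level of Ifi203, Ifi204, Ifi205, Ifi207 and Mndal correlated with that of the list at Pearson r = 0.94 and Spearman rho = 0.94, and over the 21 samples without MC38-FUT9 at r = 0.91 and rho = 0.92. For Aim2, r was 0.23 over 24 and 0.15 over 21 samples, with the lines pooled. Within every line, however, the sample highest on the list was also the highest for Aim2. In MC38-WT, for instance, Aim2 was at 8.63, 8.93 and 8.75 where the list was at 5.90, 8.55 and 7.41. These are descriptions over samples that share lines and passages.

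Among themselves, the 5 genes correlated at a median Pearson r of 0.84 over their 10 pairs (0.78 to 0.93) and a median Spearman rho of 0.80. The part of reads shared between these near copies in this was not tested. The median r was 0.72 without MC38-FUT9. Aim2 correlated with the 5 at a median r of 0.14 (rho 0.06) over all samples. After each line was centred on its own mean, the median r of Aim2 with the 5 was 0.58, so within lines Aim2 was higher in the samples where the others were higher, as in sample 3 of MC38-MOCK#1 and MC38-MOCK#2.

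The genes most like the mean of the 6 detected p200 genes, by Pearson r over the 24 samples among 13508 genes outside the cluster, were mostly other interferon-induced genes: Ifih1, an RNA sensor (r = 0.97), Cmpk2 (0.95), Psmb8, a subunit of the immunoproteasome (0.95), Trim30a (0.94), Ddx58, the gene of RIG-I (0.94), Pon2 (0.94), Rsad2 (0.94), Usp18 (0.94), Lgals3bp (0.94) and Psme2b (0.93). For single genes the closest were Ptn (0.98) and Psmb8 (0.98) for Ifi204, Sp100 (0.94) and Apobec3 (0.93) for Ifi205, Cmpk2 (0.95) for Ifi203, Lgals3bp (0.90) and Irak4 (0.89) for Mndal, and Ifitm3 (0.90) and Rsad2 (0.90) for Ifi207. The closest to Aim2 were Nxf3 (0.93) and Gsta4 (0.92), neither of which is on the interferon lists.

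Immune cells also express p200 genes, so their markers were read beside the fall in MC38-FUT9. Of 12 such markers, 5 could be tested by limma against MC38-MOCK#2, 0 were called and 1, Cd14, passed an unadjusted p below 0.05. Of all 21480 genes tested there, 7516 passed it. Their summed level was 290 to 321 in MC38-FUT9 and 332 to 402 in MC38-MOCK#2, nearly all of it Cd14 and Cd68, and its part in the fall was not tested, while Cd3e was at 0 in all samples and Adgre1, Itgam, Tyrobp and Fcgr1 reached at most 2. In bulk samples of 1 line, fewer cells that express a gene and less RNA per cell cannot be told apart.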

How the data were processed

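Total RNA of MC38 lines was sequenced as stranded poly(A) libraries, single reads of 50 bases. Per the labels and methods, the authors aligned reads with HISAT2 (v2.0.4) to GRCm38, counted them per Ensembl gene with featureCounts (Subread v1.5.0-p3, leaving out reads over several genes) and scaled library size and composition by TMM in edgeR (v3.18.1). The deposited values, treated as a score, are these normalized counts rounded to whole numbers, so no count model was used. Depth was estimated per library from the whole numbers that rounding skips or doubles, within 0.183% on simulated data.

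Comparisons of 3 against 3 samples were fitted with limma (v3.58.1, R v4.3.3, trended variance) on log2(value + 1), after genes with over 4 zeros among the 6 samples were left out, with Benjamini-Hochberg adjustment over all genes and a threshold of 0.05. The fit was tested on simulated data. Members and gene lists were chosen with earlier results of these data known. Of a list, at most 3 genes per comparison and direction were named, by size of fold change. Casp1, Cgas, Krt20, Irf9, Pycard, Il1b, Il18 and the interferons were named after their values were seen. Protein sequences were not used here, and 1 gene that met the rule is not reported here.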

Additional observations from a re-analysis of the deposited data

Results flagged for a closer look

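Aim2 differed between the CMAS knockout and the double knockout: its effects against MC38-WT were -0.02 and -0.82 on the log2 scale, and the difference itself was -0.80 (limma adjusted p = 0.0216), lower in each of the 3 MC38-DKO samples than in any MC38-CMAS KO sample. Of all genes tested there, 3.78% were called lower and 12.2% were lower with no overlap. The 6 detected p200 genes also showed a difference between MC38-FUT9 and the line labelled MC38-FUT4, whose effects share the MC38-MOCK#2 control. There, 15.8% of all genes tested were called lower in MC38-FUT9. That difference was -6.89 for Ifi204, -5.08 for Mndal, -4.29 for Ifi205, -4.22 for Ifi207, -3.63 for Ifi203 and -0.81 for Aim2, with limma adjusted p from 7.73e-05 to 0.0128, and each gene was lower in 3 of 3 MC38-FUT9 samples. For Aim2 both lines lay above MC38-MOCK#2 on average, at fold changes of 0.57 and 1.38. With 3 samples a line, no sample was screened as an outlier.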

How the results depend on the processing

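Each of 7 comparisons was repeated with another added constant, filter, scaling, variance model, fit or threshold, and without each sample. In MC38-FUT9 against MC38-MOCK#2, Ifi203, Ifi204, Ifi205, Ifi207 and Mndal were lower under all 80 alternatives, and the call was lost in 15, all of Ifi203 or Ifi207. The count of p200 genes called there was 5, and 3 with 5 as the added constant, 3 without a variance trend, 4 with the replicate block (Ifi203 and Ifi207 lost, Aim2 called higher), 6 with a mean of at least 10 or all 8 lines in a single fit (Aim2 called higher), and 3 to 5 without 1 sample (3 without sample 1 of MC38-MOCK#2 or without any 1 of the MC38-FUT9 samples, and 5 without sample 3 of MC38-MOCK#2, with Ifi207 lost and Aim2 called higher). It was 6 in MC38-FUT9 against the line labelled MC38-FUT4 and stayed at 5 or 6, and 1 in that line against MC38-MOCK#2 under every setting. The count of 1, Aim2, became 0 without a variance trend in MC38-DKO against MC38-WT, MC38-DKO against MC38-CMAS KO and MC38-MOCK#2 against MC38-WT, and 0 in the first and second when the fold change also had to exceed 1. Without 1 sample it was 0 to 2, 0 to 1 and 0 to 1. It became 0 without sample 2 or 3 of MC38-WT or of MC38-DKO in the first, without any sample but sample 1 of MC38-DKO in the second and without any sample but sample 3 of MC38-MOCK#2 in the third.

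The same replicate number did not pair samples in most comparisons: the correlations of deviations between same-numbered samples ran from -0.28 to 0.23 in the tested comparisons. Each sample was closest to its own number only in MC38-DKO against MC38-CMAS KO and MC38-FUT9 against MC38-MOCK#2. In these the same number is the same passage, and the correlations were 0.05 to 0.18 and 0.09 to 0.22. In a fit with a block for the replicate number, the p200 genes called were 0 in MC38-DKO against MC38-WT, 2 in MC38-DKO against MC38-CMAS KO and 0 in MC38-MOCK#2 against MC38-WT, and the counts of all genes called were 0 in MC38-CMAS KO against MC38-WT, 2, 795 and 0 in these 3, and 1756 in the line labelled MC38-FUT4 against MC38-MOCK#2. The 2 genes in MC38-DKO against MC38-CMAS KO were Aim2, lower, and Ifi204, higher (limma adjusted p = 0.0380 for Ifi204, against 0.195 without the block).

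Counts of all genes called moved more. In MC38-CMAS KO against MC38-WT, 51 became 32 with 0.5 added, 83 with no filter, 99 with a mean of at least 10, 82 with median-of-ratios scaling, 544 with all 8 lines in a single fit, 83 without a trend and 0 without any 1 sample. With all 8 lines in a single fit, 1621 became 3530 in MC38-DKO against MC38-WT, 1515 became 2403 in MC38-DKO against MC38-CMAS KO and 663 became 2235 in MC38-MOCK#2 against MC38-WT. Without a trend these 3 counts were 713, 692 and 289, and 3509 and 5166 in the line labelled MC38-FUT4 and in MC38-FUT9 against MC38-MOCK#2 became 2270 and 3430. With a fold change above 1 the 5 counts were 753, 591, 399, 1447 and 1875, and 6922 in MC38-FUT9 against the line labelled MC38-FUT4 became 2553. Without 1 sample the 5 counts were 268 to 1100, 231 to 761, 0 to 186, 1621 to 3112 and 3089 to 5065. The cause was not tested.

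Of 742 repeated fold changes of single genes, 27 changed sign, none of a called gene. For Ifi204 in MC38-DKO against MC38-WT, 0.0011 became -0.00023 with 5 added and -0.0034 with median-of-ratios scaling, and -0.38 to 0.43 without 1 sample. The other changes of sign were all without 1 sample. In MC38-DKO against MC38-WT the range was -0.51 to 0.81 for Ifi203 and -0.27 to 0.74 for Ifi205. In MC38-DKO against MC38-CMAS KO it was -1.33 to 0.23 for Mndal and -0.51 to 0.18 for Ifi207. In MC38-MOCK#2 against MC38-WT it was -0.49 to 1.39 for Ifi203 and -0.017 to 0.96 for Ifi204. In the line labelled MC38-FUT4 against MC38-MOCK#2 it was -0.31 to 0.57 for Mndal, -0.79 to 0.042 for Ifi204 and -1.07 to 0.81 for Ifi203, and in MC38-CMAS KO against MC38-WT it was -0.12 to 0.093 for Aim2. The median correlation among the 5 genes was 0.80 with 5 added. Correlations without MC38-FUT9 and within lines were added after seeing the data. At 1 to 6 reads in 3 libraries, levels in MC38-FUT9 cannot be told from each other.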
